A study of Mus musculus with 4 samples.

Results

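The genes of cytoplasmic and nuclear RNA decay were followed in late two-cell mouse embryos cultured with or without an inhibitor of MYC. The set holds 34 genes, chosen by symbol from the 24411 genes listed in each library, and all 34 were listed. They encode the RNA exosome and its helicases, the 5'-3' exoribonucleases, the decapping enzymes and their activators, the Pan2-Pan3 and Parn deadenylases, and the factors of nonsense-mediated decay (NMD). The set also holds Mtrr, whose product is methionine synthase reductase, an enzyme of folate and methionine metabolism with no known part in RNA decay. Its own values are given apart from the others, but counts, shares and medians of the set include it unless stated.

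The libraries were made from polyadenylated RNA of ICR embryos fertilized in vitro and grown in KSOM medium with bovine serum albumin, with 10 embryos pooled in each library and collection at 36 h post-insemination (hpi). Embryos of 2 libraries were exposed to 6 µM 10074-G5, a small molecule that binds MYC and hinders its pairing with MAX, and embryos of 2 control libraries received the solvent DMSO alone. The start of the exposure is stated as 3 hpi in the sample labels and as 6 hpi in the series design. The labels name no genetic change in any embryo and no batch, the compound is the one difference they give between the groups, and a single compound at a single dose was sequenced.

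An mRNA is usually destroyed after its poly(A) tail has been shortened. The cap is then removed by Dcp2 and the body is digested from the 5' end by Xrn1, or the body is digested from the 3' end by the exosome, a barrel of non-catalytic subunits that threads RNA into the nucleases Dis3, Dis3l or Exosc10. NMD removes transcripts on which a ribosome stops too early, and it relies on the helicase Upf1, its kinase Smg1 and the endonuclease Smg6. In the mouse two-cell embryo these machines work while the transcripts stored in the oocyte are being cleared and the embryonic genome is being switched on.

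The expected counts summed to between 18206584 and 20718690 per library, and the 34 genes took from 0.185% to 0.202% of them. Of the 34 genes, 33 passed the filter on low counts and were tested among 13549 genes, and Dcp1b did not. DMSO replicate 1 stood apart from the other libraries. Across the tested genes, its log2(CPM + 0.5) (CPM is counts scaled to library size and TMM factor) had a Pearson's r of 0.857 and 0.876 with the treated libraries, against 0.941 and 0.953 for DMSO replicate 2. Levels compared between genes are given as FPKM (fragments scaled to transcript length and library depth). Of 15 oocyte marker genes, 12 had CPM values that were higher in both treated libraries than in both controls, as 28.9% of all tested genes did. Zp3 ran the other way (FPKM of 205 and 75.1 in control against 58.95 and 65.1 in treated embryos), as 28.3% of all tested genes did. H1foo and Zar1 overlapped. The summed FPKM of the 15 markers, to which Btg4 and Oosp1 gave most, came to 1644 and 5493 in DMSO replicates 1 and 2 and to 10980 and 7999 in treated replicates 1 and 2. The summed FPKM of 12 two-cell markers, to which Gm4027, Tcstv3 and Tcstv1 gave most, was 1390, 5444, 7550 and 8556 in the same order. In CPM, 8 of these markers were higher in both treated libraries, as 28.9% of all tested genes were, and 4 overlapped. Those 4 were Zscan4c, Usp17la, Tdpoz4 and Dux. Dux had an FPKM of 1.11 and 2.14 in control against 1.35 and 0.58 in treated embryos. No marker of these 2 lists was at 0 in all libraries. Summed FPKM of 10 cumulus and granulosa cell markers lay between 0.66 and 6.68, with Amh, Foxl2, Inha and Ptx3 at 0 in all libraries. That of 7 sperm markers was 2.7 and 4.44 in control against 16.1 and 9.43 in treated embryos, with Prm1, Prm3 and Tnp2 at 0 in all libraries and only Prm2 passing the filter on low counts. The 6 blood markers summed to 1.95 and 20.99 FPKM in DMSO replicates 1 and 2, and to 10.75 and 13.71 in treated embryos. Hbb-bs and Hbb-bt were at 0 in all libraries. The 8 later embryo markers summed to 3.71, 11.52, 12.59 and 13 FPKM in the same order. The part of these marker differences in the values below was not tested, and fewer embryos of a kind and less RNA per embryo cannot be told apart in pooled embryos.

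Most genes of the exosome and its nuclear helicase had lower values in 10074-G5-treated embryos, fewer members had higher values, and the 7 NMD factors had a median log2 fold change (log2FC, treated minus control) of -0.18. The thresholds were those of the study, a Benjamini-Hochberg adjusted p under 0.05 and a log2FC beyond 1 in either direction, and the quasi-likelihood test of edgeR called 0 of the 33 genes and 0% of all tested genes in each direction. At an unadjusted p under 0.05 the same test found 8 of the 33 genes lower in treated embryos (24.2%, where all tested genes gave 10.1%) and 1 higher (3.03%, against 4.72%). By sign alone, 21 of the 33 genes were lower (63.6%, against 48.5% of all tested genes) and 12 were higher (36.4%, against 51.5%). The 8 lower genes with an unadjusted p under 0.05 were Exosc1, Exosc4, Exosc5, Exosc7, Dis3, Skiv2l2, Edc3 and Smg5, and the higher gene was Dcp1a. The smallest edgeR adjusted p over all tested genes was 0.333, and genes with different unadjusted p shared it. Edc3 and Exosc4 both had it, with an unadjusted p of 0.00264 and 0.0314 by edgeR. DESeq2 is the tool of the study, whose methods do not mention transcript lengths. Run here with transcript lengths, it called Exosc5, Exosc7 and Dis3 down-regulated (8.82% of 34 genes, against 2.41% of 18208 genes) and no member up-regulated (0.478% of all genes). Without the lengths it called the same 3 genes (9.09% of 33, against 3.54% of all tested genes) and none on the higher side (0.716%). In CPM the groups did not overlap for 18 genes that were lower in treated embryos (54.5%, against 28.3% of all tested genes) and for 5 that were higher (15.2%, against 28.9%), which were Dcp1a, Dcp2, Pan2, Pan3 and Upf3a.

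The median log2FC of the 33 genes was -0.46, and that of all tested genes was 0.04. When libraries were scaled by their totals, the median of all tested genes moved by 0.13, and the members lay 0.49 below it in place of 0.50 below. DMSO replicate 1 was farther from the treated mean than DMSO replicate 2 for 27 of the 33 genes (81.8%, against 77.2% of all tested genes). The DMSO libraries differed by more than 2-fold in CPM + 0.5, where the 0.5 damps differences between low values, for 10 of the 33 genes (30.3%, against 37.3% of all tested genes), and the treated libraries for 1, Skiv2l (3.03%, against 15.9%). Without DMSO replicate 1, the median log2FC of the set was -0.21, and 6 of its genes were lower and 1 higher at an unadjusted p under 0.05 (18.2% and 3.03%, against 7.36% and 6.44% of all tested genes). By sign alone 20 were then lower and 13 higher (60.6% and 39.4%, against 47% and 53%). Exosc4 and Smg5 were the 2 of the 8 lower genes missing from the 6. Without DMSO replicate 2 the number of lower genes at an unadjusted p under 0.05 was 14 (42.4%, against 20.5% of all tested genes) and that of higher genes 6 (18.2%, against 21.5%). This was also the one fit with a library left out in which members passed both thresholds, 12 lower and 5 higher (36.4% and 15.2%, against 14.1% and 14.6% of all tested genes). Without treated replicate 1, Edc3 alone was lower at an unadjusted p under 0.05 (2.94% of 34 genes, against 2.05%) and 0 were higher (1.12% of all tested genes). Without treated replicate 2, Dis3, Edc3 and Exosc7 were lower (8.82% of 34 genes, against 3.73%) and 0 were higher (2.19% of all tested genes).

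**Figure D1:**
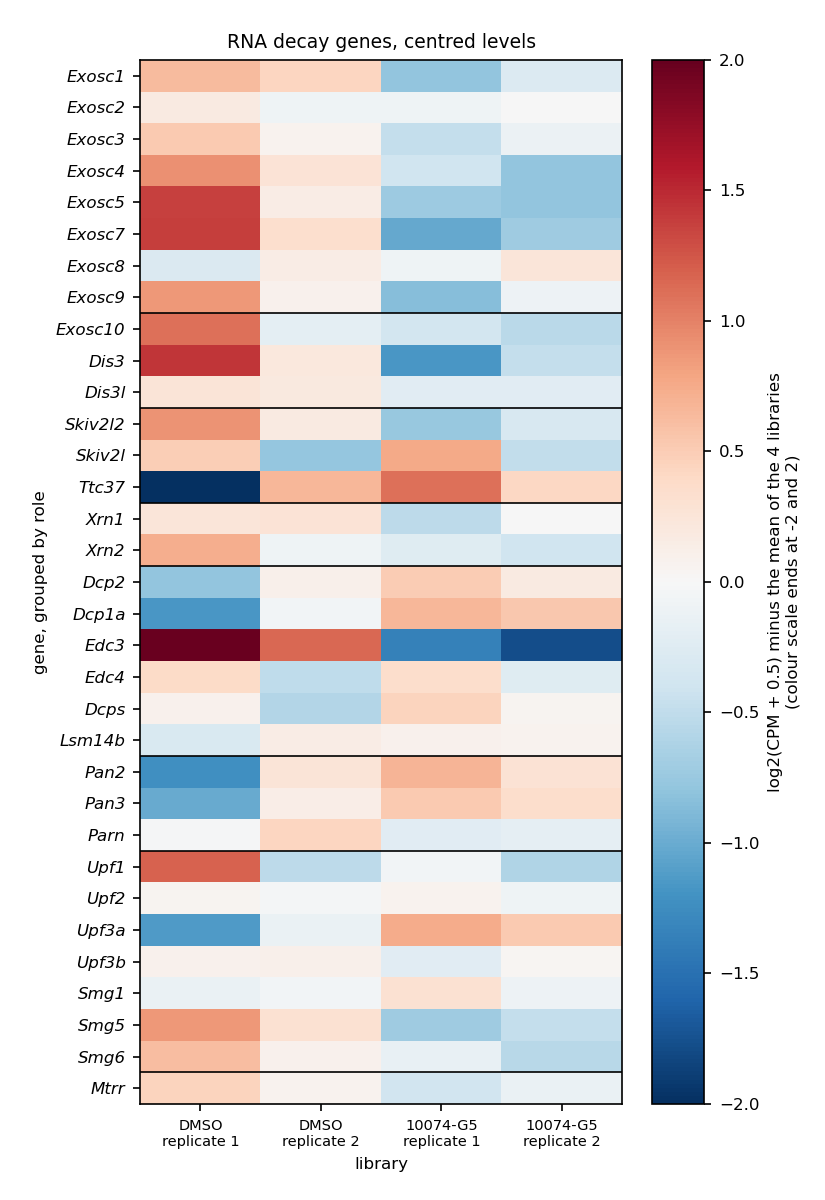
Centred levels of the 33 tested RNA decay genes, as log2(CPM + 0.5) minus the mean of the 4 libraries of each gene, with 1 column per library and horizontal lines between roles (from the top: exosome core, exosome nucleases, exosome helicases, 5'-3' nucleases, decapping, deadenylation, NMD and Mtrr). Red marks a library above the gene's mean and blue one below it, and the strongest colours of most exosome rows lie in DMSO replicate 1.

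Because MYC-MAX binds the E-box CACGTG, which reads alike on both strands, these letters were searched in RefSeq promoter windows of 250 bases before and 50 bases after each start site in GRCm38.p6. Windows were found for 30 members, with none for Exosc4, Exosc9, Skiv2l and Dcp2. Of the 30, 2 held CACGTG (6.67%), against 8.09% of 27025 genes with a window. The broader form CANNTG, of which CACGTG is 1 case, was found in the upstream part of 17 of the 30 (56.7%), against 69.3% of all genes with a window. The members that held CACGTG were Exosc5, where the motif starts 44 bases before the start site, and Xrn2, where it starts at transcribed base 22. Both sites are shown with 12 bases on either side, 5' to 3' on the gene's strand (plus), with CACGTG in capitals, at chr7:25659097-25659126 for Exosc5 and chr2:147013008-147013037 for Xrn2.
Exosc5: taaacgctgagcCACGTGctagggccaact
Xrn2: ggccgctgaacgCACGTGggaggaagtgct
Longer upstream stretches of Exosc5, which DESeq2 called, and of Edc3, which had the largest log2FC without holding the letters, are set side by side for comparison, with any CANNTG in capitals. The Exosc5 stretch is chr7:25659003-25659152 (plus strand, bases -150 to -1, 60.7% G and C, 7 CpG). The Edc3 stretch is chr9:57708389-57708538 (plus strand, bases -180 to -31, ending just before the annotated gene start, 51.3% G and C, 4 CpG). Bases are counted from the start site of each promoter window, so the stretches do not cover the same positions.
Exosc5: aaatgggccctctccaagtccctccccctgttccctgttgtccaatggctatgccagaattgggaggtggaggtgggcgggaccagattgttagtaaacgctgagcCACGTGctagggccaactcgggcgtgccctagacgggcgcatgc
Edc3: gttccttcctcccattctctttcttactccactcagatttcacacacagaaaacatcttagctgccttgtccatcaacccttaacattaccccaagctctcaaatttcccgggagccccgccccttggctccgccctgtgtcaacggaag
A match in letters is not evidence of binding in these embryos, and the absence of one speaks only of these windows.

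The exosome core consists of a ring and of cap subunits that bind the entering RNA. By the summed FPKM of the 8 core genes of the set, it was at 756 in DMSO replicate 1, 641 in DMSO replicate 2, 396 in treated replicate 1 and 503 in treated replicate 2. Both treated libraries lay below both control libraries. In CPM, 6 of the 8 genes separated the groups in that direction, as 28.3% of all tested genes did, and 4 were lower at an unadjusted p under 0.05, as 10.1% of all tested genes were. Their median log2FC was -1.01, or -0.69 without DMSO replicate 1.

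Exosc7, a ring subunit on chromosome 9 of GRCm38.p6 (the mm10 assembly) from 123113231 to 123136129, had an FPKM of 248 and 143 in control embryos against 54.97 and 70.1 in treated embryos. Even the lower control library lay far above both treated ones, and the controls differed from each other by 1.73-fold. The log2FC of Exosc7 was -1.82 in the edgeR fit (standard error 0.45, adjusted p = 0.333). DESeq2 put the log2FC of this gene at -1.84 (standard error 0.49) with an adjusted p of 0.0118, and the alternatives spread the adjusted p over 0.000444 to 0.992. Leaving out DMSO replicate 1 gave -1.19 for this gene, and leaving out DMSO replicate 2 gave -2.25.

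Exosc5, another ring subunit and the holder of the upstream CACGTG, lies on chromosome 7 from 25659153 to 25668032. Its FPKM was 57.3 and 28.5 in control embryos against 15.3 and 15.0 in treated embryos, so that the treated libraries were nearly equal and the controls differed by 2.01-fold. In the edgeR fit its log2FC was -1.69 (standard error 0.53, adjusted p = 0.333), and -0.93 without DMSO replicate 1. The value from DESeq2 was -1.70 (standard error 0.58), its adjusted p was 0.0487, and the alternatives gave an adjusted p as low as 0.00161 and as high as 0.992.

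Exosc1, the cap subunit known as Csl4 in yeast, had nearly equal control libraries, at 105 and 108 FPKM, and treated libraries at 46.4 and 67.6 FPKM. Its difference therefore depended little on the choice of control, with an edgeR log2FC of -1.04 (standard error 0.37, adjusted p = 0.333), -0.92 without DMSO replicate 1 and -1.14 without DMSO replicate 2. Exosc4, a ring subunit and the gene of the core with the lowest mean FPKM, was at 22.9 and 17.4 FPKM in control embryos against 10.9 and 8.33 FPKM in treated embryos (log2FC -1.23, standard error 0.47, adjusted p = 0.333 by edgeR). The annotated span of Exosc4 overlaps that of Oplah, and whether counting used strand is not stated, so reads could be shared between them.

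The remaining core genes lay closer together in the groups. Exosc3, a cap subunit and the core gene with the highest mean FPKM, had 166 and 144 FPKM in control embryos against 97.9 and 129 FPKM in treated embryos, with a log2FC of -0.61 (standard error 0.37) and an adjusted p of 0.44 by edgeR. The FPKM of Exosc9 was 25.4 and 17.4 in control and 8.86 and 15.4 in treated embryos, and its log2FC of -0.99 (standard error 0.51) had an adjusted p of 0.381 by edgeR. That value was -0.52 without DMSO replicate 1 and -1.42 without treated replicate 2. Exosc9 overlaps the span of Ccna2, and Exosc8 that of Supt20. By contrast Exosc2, at 47.9 and 47.1 FPKM in control and 47.1 and 50.6 FPKM in treated embryos, and Exosc8, at 83.7 and 135 FPKM in control and 115 and 147 FPKM in treated embryos, had groups that overlapped. Their log2FC was -0.10 (standard error 0.36) and 0.14 (standard error 0.37), and both signs changed when DMSO replicate 1 was left out, to 0.054 for Exosc2 and -0.044 for Exosc8. The sign of Exosc2 also changed when library totals were used for scaling. Across the subunits of the barrel the log2FC thus ran from -1.82 to 0.14, and differences between subunits were not tested.

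**Figure D2:**
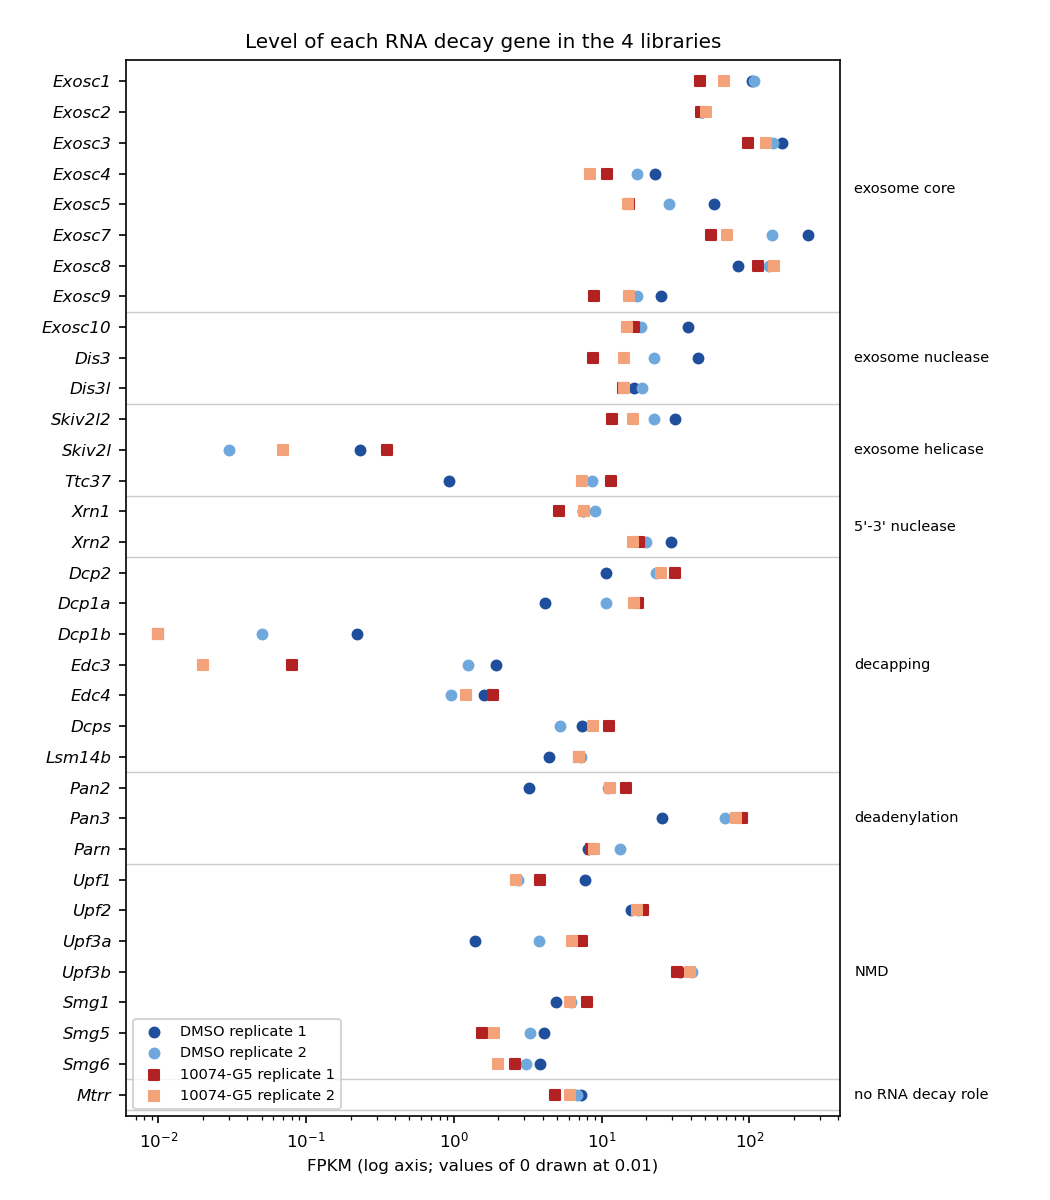
FPKM of the 34 genes in each library on a log axis, with control libraries as circles, treated libraries as squares and values of 0 drawn at 0.01. The controls of Exosc7 sit at 143 and 248 FPKM and its treated libraries at 54.97 and 70.1, whereas Pan3 has its lowest value, 25.7, in DMSO replicate 1.

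Of the nucleases attached to the barrel, Dis3 digests RNA in the nucleus both from the end and internally. It lies on chromosome 14 from 99076634 to 99099780 and overlaps the span of Pibf1. The FPKM of Dis3 was 44.6 and 22.8 in control embryos against 8.70 and 14.3 in treated embryos, and both treated libraries lay below both controls. The edgeR log2FC was -1.74 (standard error 0.51, adjusted p = 0.333), or -0.99 without DMSO replicate 1. With DESeq2 it was -1.76 (standard error 0.53) at an adjusted p of 0.0259, and the lowest and highest adjusted p of the alternatives were 0.000884 and 0.992. Exosc10, the nuclear exonuclease of the barrel's top, had 38.5 FPKM in DMSO replicate 1 and 18.6 FPKM in DMSO replicate 2, against 16.5 and 14.8 FPKM in treated embryos. Here DMSO replicate 2 lay close to the treated libraries, and the log2FC of -1.05 (standard error 0.50, adjusted p = 0.354 by edgeR) became -0.25 without DMSO replicate 1. Dis3l, the cytoplasmic counterpart of Dis3, was at 16.5 and 18.8 FPKM in control and at 14.0 and 14.2 FPKM in treated embryos (log2FC -0.46, standard error 0.37, adjusted p = 0.545 by edgeR).

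The exosome is fed by separate helicases in the nucleus and the cytoplasm. Skiv2l2 (now Mtrex), the nuclear helicase Mtr4, lies on chromosome 13 from 112867780 to 112927380, where it overlaps the span of Plpp1. It had 31.6 and 22.7 FPKM in control embryos against 11.8 and 16.3 FPKM in treated embryos, with an edgeR log2FC of -1.12 (standard error 0.42, adjusted p = 0.333) and -0.69 without DMSO replicate 1. In the cytoplasm the Ski complex does this work. Its helicase Skiv2l was barely detected, with rounded counts of 16 and 2 in control and of 27 and 5 in treated embryos. The ratio of control to treated counts of Skiv2l, summed by group and scaled, was 0.672. Its exact 95% interval, from 0.355 to 1.23, covers counting error at most. Ttc37, the scaffold of the Ski complex, had 0.93 FPKM in DMSO replicate 1 but 8.63 in DMSO replicate 2, 11.6 in treated replicate 1 and 7.36 in treated replicate 2. One library alone stood apart for Ttc37, and its log2FC of 0.95 (standard error 0.83, adjusted p = 0.578 by edgeR) became 0.14 when DMSO replicate 1 was left out and 3.08 when DMSO replicate 2 was.

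Neither 5'-3' exoribonuclease had an unadjusted p under 0.05. Xrn2, which trims nuclear RNA and helps to end transcription, was at 29.6 and 19.9 FPKM in control and at 18.0 and 16.4 FPKM in treated embryos (log2FC -0.69, standard error 0.42, adjusted p = 0.428 by edgeR), and its log2FC was -0.21 without DMSO replicate 1. Xrn1, which digests decapped mRNA in the cytoplasm, was at 7.43 and 9.02 FPKM in control and at 5.17 and 7.57 FPKM in treated embryos (log2FC -0.51, standard error 0.40, adjusted p = 0.543 by edgeR). The groups of Xrn1 were separate in CPM but overlapped in FPKM.

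The decapping genes did not share 1 direction. Dcp2, the catalytic enzyme, had 10.7 and 23.4 FPKM in control embryos against 31.2 and 25.4 FPKM in treated embryos. The treated libraries lay above both controls, DMSO replicate 2 was close to them, and the log2FC of 0.63 (standard error 0.42, adjusted p = 0.467 by edgeR) was 0.27 without DMSO replicate 1. Dcp1a, its activator, is on chromosome 14 from 30479486 to 30527056 and overlaps the span of Cacna1d. Its FPKM was 4.14 and 10.8 in control embryos against 17.7 and 16.6 in treated embryos, and edgeR gave a log2FC of 1.12 (standard error 0.46, adjusted p = 0.334), 0.67 without DMSO replicate 1 and 1.78 without DMSO replicate 2. It was the one member with an unadjusted p under 0.05 on the higher side, but scaling by library totals left no member there (4.52% of all tested genes) and 7 on the lower side (21.2%, against 7.5% of all tested genes).

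Dcp1b, the paralog of Dcp1a, overlaps the span of Cacna1c. Dcp1b had rounded counts of 13 and 3 in control embryos and of 0 in both treated libraries. The exact 95% interval of the ratio of control to treated counts began at 4.61 and had no upper end, for counting error at most. Most of the control counts came from DMSO replicate 1. The FPKM of Dcp1b was 0.22, 0.05, 0 and 0 over the libraries, below that of Dcp1a in each of them.

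Edc3, an enhancer of decapping that scaffolds Dcp2 and its partners, showed the largest log2FC of the set. It lies on chromosome 9 from 57708540 to 57750163 and overlaps no other RefSeq gene. Rounded counts of Edc3 were 114 and 69 with DMSO against 5 and 1 with 10074-G5, which corresponds to 1.94, 1.24, 0.08 and 0.02 FPKM. The gene was weakly expressed in control embryos and close to the limit of detection in treated embryos, and no control library came near a treated one. The ratio of control to treated counts was 36.4, with an exact 95% interval from 16.4 to 101 for counting error at most. The fitted log2FC of Edc3 was -5.16 (standard error 1.17, adjusted p = 0.333 by edgeR), leaving out any 1 library kept it between -6.55 and -4.46, and the alternatives gave adjusted p values of 0.00581 to 0.727. DESeq2 gave no adjusted p for it. Without the low-count filter, edgeR called it together with Exosc7 and Dis3 (8.82% of 34 genes, against 2.63% of 18208 genes on the lower side), and none on the higher side (0.906%).

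Edc4, the large scaffold of the decapping complex, was at 1.59 and 0.96 FPKM in control and 1.85 and 1.21 FPKM in treated embryos, and the scavenger enzyme Dcps, which hydrolyses the cap left by the exosome, was at 7.31 and 5.23 FPKM against 11.3 and 8.72 FPKM. The log2FC of Dcps was 0.51 (standard error 0.59), and that of Edc4 was 0.09 (standard error 0.65). Lsm14b, an RNA granule protein of the oocyte, was at 4.42 FPKM in DMSO replicate 1 and between 6.98 and 7.24 FPKM in the other libraries. The adjusted p of these genes was between 0.68 and 0.959 by edgeR, and the sign of Edc4 and of Lsm14b changed when single libraries were left out.

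The deadenylases that act before decapping were split. Pan3, the adaptor that holds the nuclease Pan2 on the tail, had 25.7 FPKM in DMSO replicate 1, 67.9 in DMSO replicate 2, 89.0 in treated replicate 1 and 80.9 in treated replicate 2. Pan2 itself had 3.24, 10.99, 14.6 and 11.4 FPKM in the same order of libraries. Both were highest in treated replicate 1 and lowest in DMSO replicate 1, with DMSO replicate 2 nearer to the treated libraries than to the other control. The log2FC was 0.77 for Pan3 (standard error 0.45, adjusted p = 0.424 by edgeR) and 0.80 for Pan2 (standard error 0.55, adjusted p = 0.481), and without DMSO replicate 1 these were 0.32 and 0.25. Parn, a poly(A)-specific ribonuclease that also matures small RNAs, was at 8.14 and 13.4 FPKM in control and 8.43 and 8.88 FPKM in treated embryos (log2FC -0.43, standard error 0.43, adjusted p = 0.628 by edgeR), and its groups overlapped in FPKM.

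The FPKM of Dcp1a, Dcp2, Pan2, Pan3 and Upf3a was lowest in DMSO replicate 1, higher in DMSO replicate 2, higher again in treated replicate 2 and highest in treated replicate 1, an order shared by the sum of the oocyte markers and by 7 of these 15 markers singly. These were 5 of the 33 tested members (15.2%), and 16.1% of all tested genes had the same order. The exact reverse order was found for Exosc3, Exosc7, Exosc9, Dis3, Skiv2l2, Smg5 and Mtrr (21.2%, against 13.5% of all tested genes). The part of the oocyte transcripts in these differences was not tested.

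**Figure D3:**
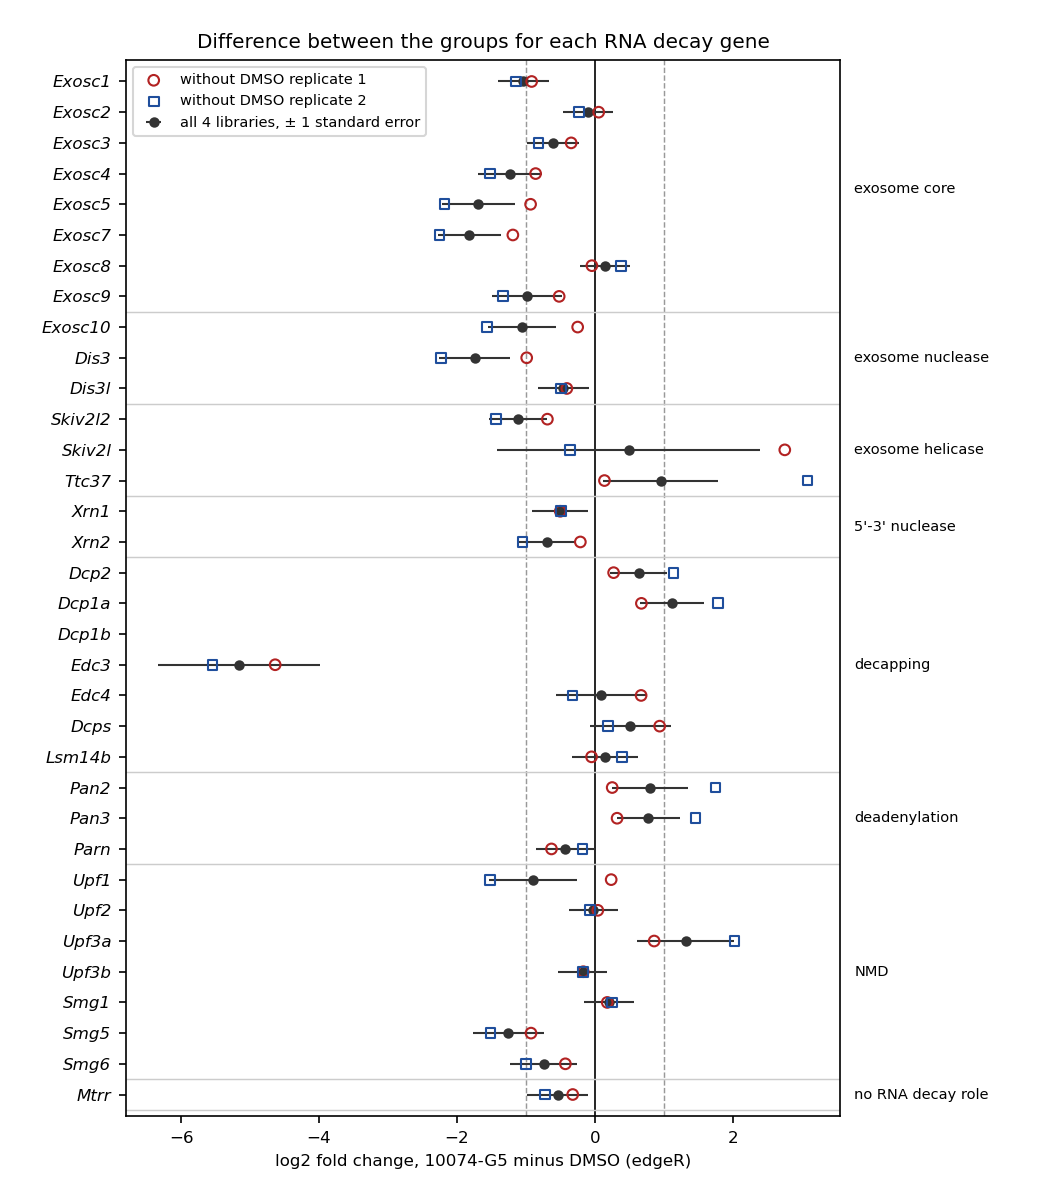
The log2FC of the 33 tested genes, 10074-G5 minus DMSO, from edgeR with all 4 libraries (filled points with bars of 1 standard error), without DMSO replicate 1 (open circles) and without DMSO replicate 2 (open squares), with dashed lines at -1 and 1 and no point for the untested Dcp1b. Edc3 lies farthest from 0 at -5.16, and for Upf1 the circle (0.24) and the square (-1.52) lie on opposite sides of 0.

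Among the 7 NMD factors the median log2FC was -0.18, and it was 0.04 without DMSO replicate 1. Smg5, which binds phosphorylated Upf1 and brings in the phosphatase that resets it, lies on chromosome 3 from 88336259 to 88362338 and was the one NMD factor with an unadjusted p under 0.05. It had 4.06 and 3.26 FPKM in control and 1.55 and 1.88 FPKM in treated embryos, with an edgeR log2FC of -1.25 (standard error 0.52, adjusted p = 0.334) and -0.93 without DMSO replicate 1. Smg6, the endonuclease that cuts the target near its premature stop codon, was at 3.80 and 3.09 FPKM in control and at 2.61 and 1.98 FPKM in treated embryos (log2FC -0.74, standard error 0.48, adjusted p = 0.462 by edgeR). Other genes, among them Srr and Hic1, lie within or across the long span of Smg6. Smg1, the kinase of Upf1, was at 4.91 and 6.19 FPKM in control and 7.93 and 6.10 FPKM in treated embryos, with a log2FC of 0.21 (standard error 0.36).

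Upf1, the central helicase of NMD, whose annotated span overlaps those of Gdf1 and Cers1, was high in 1 library only. Its FPKM reached 7.69 in DMSO replicate 1 but 2.73 in the other control, and it was 3.81 and 2.63 in the treated libraries, and edgeR gave a log2FC of -0.90 (standard error 0.64, adjusted p = 0.496) with all libraries and 0.24 without DMSO replicate 1. Upf2, which links Upf1 to the exon junction complex through the Upf3 proteins, hardly varied, at 15.9 and 17.7 FPKM in control and 19.0 and 17.4 FPKM in treated embryos, with a log2FC of -0.02 (standard error 0.35) whose sign depended on the scaling. Upf3b, an X-linked reader of the exon junction complex on chromosome X from 37091678 to 37110471, varied little as well, at 33.96 and 40.7 FPKM against 32.5 and 39.8 FPKM (log2FC -0.18, standard error 0.36, adjusted p = 0.829 by edgeR). Its autosomal paralog Upf3a had 1.40 and 3.77 FPKM in control and 7.32 and 6.35 FPKM in treated embryos, and both treated libraries lay above both controls. The log2FC of Upf3a was 1.32 (standard error 0.70, adjusted p = 0.393 by edgeR), 0.86 without DMSO replicate 1 and 2.02 without DMSO replicate 2.

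The balance of paired genes was read within each library as a ratio of FPKM, which does not depend on library scaling. Upf3b exceeded Upf3a by 24.3-fold in DMSO replicate 1 and by 10.8-fold in DMSO replicate 2, but by 4.44-fold and 6.27-fold in the treated libraries. The Dis3 to Dis3l ratio was 2.71 and 1.21 in control embryos against 0.621 and 1.01 in treated embryos, so the nuclear enzyme led in both controls and the cytoplasmic one in treated replicate 1. In both of these pairs the groups were separate, but the controls differed from each other by more than the nearer control differed from the nearer treated library. The Smg5 to Smg6 ratio was 1.07 and 1.05 in control and 0.594 and 0.950 in treated embryos, with nearly equal controls and separate groups. Its treated libraries, however, differed from each other by more than the nearer control differed from the nearer treated library. The Xrn2 to Xrn1 ratio, at 3.98 and 2.21 in control and 3.48 and 2.17 in treated embryos, and the Pan3 to Pan2 ratio, at 7.92 and 6.18 against 6.09 and 7.12, overlapped between the groups. Upf2 exceeded Upf1 by 2.07-fold in DMSO replicate 1 and by 4.997-fold to 6.60-fold in the other libraries. With 2 libraries against 2, an exact two-sided permutation test of such a ratio cannot give a p below 0.333.

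**Figure D4:**
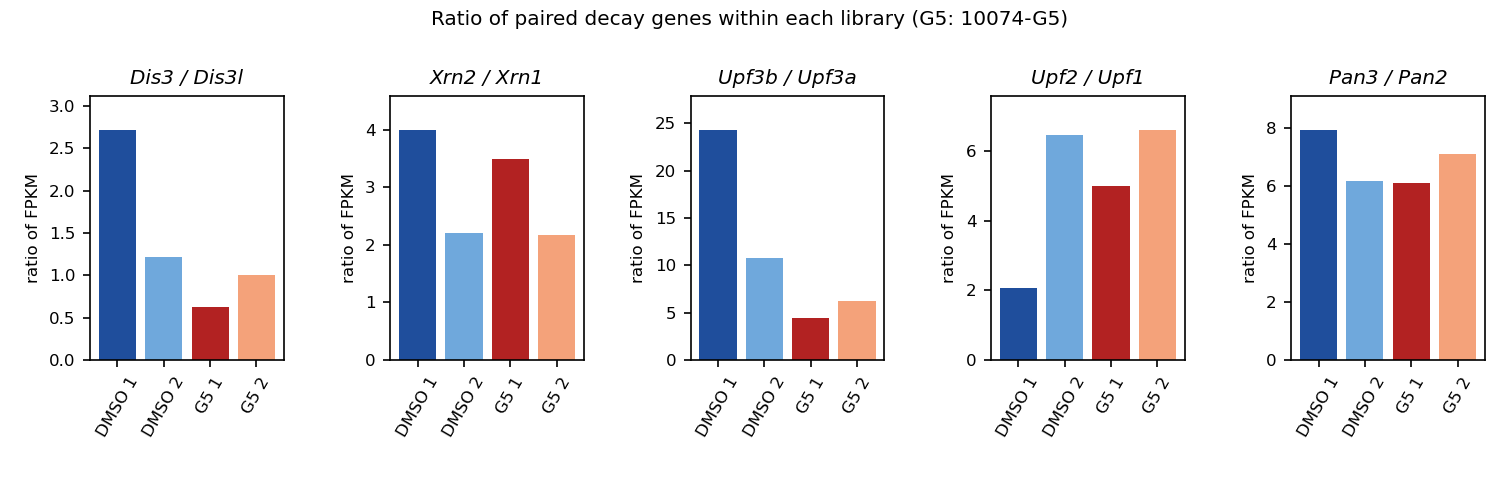
Ratio of FPKM of paired genes within each library, as bars from 0 with a separate axis for each pair, for DMSO replicates 1 and 2 (blue) and 10074-G5 replicates 1 and 2 (red and orange). The Upf3b to Upf3a ratio is 24.3 and 10.8 in the controls and 4.44 and 6.27 in the treated libraries, and the Upf2 to Upf1 ratio sets DMSO replicate 1 apart at 2.07.

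Mtrr, which overlaps the span of Fastkd3, was at 7.20 and 6.82 FPKM in control and at 4.87 and 6.12 FPKM in treated embryos. Its edgeR log2FC was -0.54 (standard error 0.44, adjusted p = 0.554). Leaving Mtrr out moved the median log2FC of the set from -0.46 to -0.44.

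A further 47 genes were named from general knowledge of the same pathways, with earlier results of these data known, so they are not an independent check. Among them is Mpp6, the symbol of a membrane scaffold protein with no known part in RNA decay (log2FC 0.57, standard error 0.44). Of the 47 genes, 44 were tested, Mpp6 included. By edgeR 0 passed both thresholds, 6 were lower at an unadjusted p under 0.05 (13.6%, against 10.1% of all tested genes) and 5 were higher (11.4%, against 4.72%), and their median log2FC was -0.22. Named here after their values were seen, the lower genes were Casc3, Gspt1, Lsm4, Lsm5, Smg8 and Wdr61, and the higher were Hbs1l, Mphosph6, Patl1, Pnrc2 and Rbm7. Exosc6, the ring subunit that completes the barrel, had 31.1 and 21.6 FPKM in control and 17.9 and 18.4 FPKM in treated embryos (log2FC -0.71, standard error 0.46, adjusted p = 0.463 by edgeR). The RNA helicase Ddx6, which represses mRNAs bound for decapping, was at 7.45 and 8.74 FPKM in control and at 7.63 and 8.66 FPKM in treated embryos, and its log2FC was -0.13 (standard error 0.37). Casc3, a peripheral protein of the exon junction complex, was the one gene of this list that DESeq2 with transcript lengths called (2.17% of 46, against 2.41% of all genes). Without the lengths DESeq2 called Casc3, Gspt1 and Lsm5 (6.82% of 44, against 3.54%). The FPKM of Casc3 was 11.1 and 10 in control and 3.88 and 4.46 in treated embryos, so its controls were nearly equal. Its log2FC was -1.49 in the edgeR fit (standard error 0.43, adjusted p = 0.333) and -1.26 without DMSO replicate 1, DESeq2 put it at -1.50 with an adjusted p of 0.0461, and the adjusted p was 0.00569 at the lowest and 0.992 at the highest among the alternatives.

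Transcripts that have been described as substrates of NMD were read next, although values per gene do not separate the isoforms that carry a premature stop codon. Of 18 such genes written down, 17 were listed and tested, with a median log2FC of -0.34 (-0.18 without DMSO replicate 1), 1 gene lower at an unadjusted p under 0.05 (5.88%, against 10.1%) and 1 higher (5.88%, against 4.72%). Both were picked out after their values were seen. The lower gene was Tra2b, a splicing regulator with a poison exon, at 613 and 180 FPKM in control and 76.3 and 80.1 FPKM in treated embryos (log2FC -2.55, standard error 0.65, adjusted p = 0.333 by edgeR, and -1.20 without DMSO replicate 1). DESeq2 with transcript lengths called Tra2b alone of the 17 (5.88%, against 2.41% of 18208 genes on the lower side), with a log2FC of -2.58 and an adjusted p of 0.00183. The adjusted p of Tra2b depended on the tool and on the libraries kept. The higher gene was Ddit3, a stress-induced transcription factor, at 96.3 and 137 FPKM in control and 219 and 242 FPKM in treated embryos (log2FC 0.85, standard error 0.35, adjusted p = 0.334 by edgeR).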

How the data were processed

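The authors aligned read pairs of SMART-Seq libraries to mm10 with STAR (version 2.7.10), kept uniquely mapped reads and quantified RefSeq genes with RSEM (version 1.3.3). Whether counting used strand is not given in the sources used here. The deposited expected counts are RSEM estimates without normalization, the deposited FPKM is scaled by the authors to effective length and fragments, and the deposited TPM was not used further.

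Expected counts were rounded, filtered with filterByExpr (minimum count 10, total 15), scaled with TMM factors and tested over all 13549 genes with edgeR 4.0.16 (quasi-likelihood, robust, R 4.3.3) and Benjamini-Hochberg adjustment. The alternatives used DESeq2 1.42.0 and limma 3.58.1 on log2(FPKM + 1) or log2(FPKM + 0.1), as well as other scalings, filters, a replicate block and each library left out. The code was tested on simulated counts. Standard errors of edgeR are the log2FC divided by the root of its F. The groups come from the titles of the deposited samples, and p-values measure the spread between 2 libraries a group. All members are given by role, with values in all libraries for those with an unadjusted p under 0.05, a DESeq2 call, one of the 5 highest FPKM or a defining enzyme activity. Members and lists were chosen with earlier results of these data known. The counting intervals take each read as an independent molecule and cover no spread between libraries. PCR copies were counted as molecules, so these intervals may be too narrow even for counting error.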

Additional observations from a re-analysis of the deposited data

How the results depend on the processing

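The number of members past both thresholds, 0 by edgeR, was 3 by DESeq2 with or without transcript lengths and 3 without the low-count filter, and it ran from 0 to 17 with each library left out, the 17 without DMSO replicate 2. A fit with 1 library left in a group takes that library to vary like those of the other group. The 8 members lower at an unadjusted p under 0.05 became 5 of 31 with limma on log2(FPKM + 1) or log2(FPKM + 0.1), filtered to a mean FPKM of 1 or more (16.1%, against 8.59% and 8.34% of all genes so tested), and 1 to 14 with each library left out (14 without DMSO replicate 2, 3 without treated replicate 2 and 1 without treated replicate 1). The single higher member became 2 of 31 with limma on log2(FPKM + 1) (6.45%, against 8.2%), 0 with library totals, and 0 to 6 with each library left out (6 without DMSO replicate 2, 0 without either treated library). The median log2FC of -0.46 was -0.30 with limma on log2(FPKM + 1), -0.28 with the same test unfiltered, and from -0.50 to -0.21 with each library left out. The 18 lower and 5 higher members without overlap became 15 and 6 in FPKM, where the groups of Xrn1, Parn and Upf3b overlapped and those of Dcps did not. The counts were 19 to 21 and 7 to 10 with each library left out. Groups of 1 and 2 libraries separate more readily than groups of 2 and 2, so this rise says nothing about the members themselves. The shares of all tested genes are not given for the FPKM counts or the left-out counts. Whether these counts are unusual for the members therefore cannot be told.

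With the replicate number as a block, 4 members were lower (12.1%, against 6.66% of all tested genes) and 2 higher (6.06%, against 6.61%) at an unadjusted p under 0.05, and 0 passed both thresholds (0.236% and 0.0886% of all tested genes). The numbers are not known to mark a shared batch, and the deviations of same-numbered libraries from their group means had a correlation of -0.0711 over 13549 genes.

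Some signs depended on the setting. Exosc2 was 0.040 with limma on log2(FPKM + 1), filtered or not, 0.041 on log2(FPKM + 0.1), 0.046 with library totals, and from -0.24 to 0.054 when single libraries were left out. Upf2 was 0.11 with limma on log2(FPKM + 1), filtered or not, 0.12 on log2(FPKM + 0.1), 0.12 with library totals and 0.0058 with at least 10 counts in every library, and from -0.074 to 0.055 when single libraries were left out. Leaving out single libraries also put the log2FC between -0.044 and 0.38 for Exosc8, -1.08 and 2.75 for Skiv2l, -0.32 and 0.67 for Edc4, -0.049 and 0.39 for Lsm14b, and -1.52 and 0.24 for Upf1. Depth limits Dcp1b, Skiv2l and Edc3 most. The cause of these changes was not tested.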
